A study of Mus musculus with 12 samples.

Results

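The response of airway macrophages (AMs) from Scnn1b-Tg mice to lipopolysaccharide (LPS) was measured by RNA sequencing of 6 of the 12 samples of the series: Scnn1b-Tg pools 17, 18 and 19 kept in medium (3 samples) and the same pools given LPS of Pseudomonas aeruginosa at 100 ng/ml (3 samples), both for 12 h. The members were taken by genotype, treatment and pool number as the labels give them. Scnn1b-Tg mice carry Scnn1b, which encodes the beta subunit of the epithelial sodium channel, under the CCSP promoter of club cells, so that the transgene acts in the airway epithelium and the macrophages live in airways filled with mucus. The mice were C57BL/6 and 6 weeks old, both groups carry the transgene, and each pool joined the lavages of 3 to 4 animals. The accounts of how the cells were obtained differ, since the labels describe lavage cells that adhered to plastic and the methods of the study describe AMs sorted from lung tissue by flow cytometry. The other 6 samples, wild-type (WT) pools 16, 17 and 18 of the same strain with and without LPS, were used to share the estimate of the spread and as the comparison at the end. Pool Tg17 was in library batch 1 and pools Tg18 and Tg19 were in batch 2, and WT pools 16 and 17 were in batch 1 and pool 18 in batch 2.

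LPS, a component of the outer membrane of Gram-negative bacteria, is handed by CD14 to the receptor TLR4 with its partner MD-2 (gene Ly96). One branch of signalling runs through MyD88 to NF-kB and AP-1 and switches on cytokines and chemokines, and the other runs through TRIF (gene Ticam1) to interferon regulatory factors and leads, through secreted type I interferon, to interferon-stimulated genes. AMs are the resident macrophages of the air spaces: they depend on GM-CSF and the lipid-sensing receptor PPARgamma, clear surfactant, and bear Siglec-F, CD11c and MARCO.

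The 6 samples held between 50 M and 59.2 M estimated counts (M for mega) each. Levels are given as CPM (the count as a share of the library, scaled with the TMM method), which correct for depth and not for transcript length, so that levels of different genes are not compared. Values of single samples are listed in the order of pools 17, 18 and 19. Log2 fold changes are LPS against medium with their standard error (SE), and adjusted p is the Benjamini-Hochberg value of the quasi-likelihood test of edgeR over all 13729 genes tested. "Rose" and "fell" mean an adjusted p under 0.05. A gene at 8 or fewer counts in all 3 samples of a group, which stands for about 3 reads, was treated as at the floor, and its change is given as a lower bound. The AM identity of the samples was checked on 14 markers, which summed to 14272 to 17775 CPM in medium and 10690 to 15893 CPM in LPS samples. Most of these sums was Chil3, at 11503 to 14406 CPM in medium and 8077 to 12427 CPM with LPS, and of the 14 markers 9 fell and 3 rose. Markers of other cells were low: the 7 measured neutrophil markers summed to 20 to 29 CPM in medium and 15 to 20 CPM with LPS, with S100a9 and Ngp at the floor, and the measured T and NK cell markers to at most 1.29 CPM. The 7 monocyte markers summed to 1.27 to 1.8 CPM in medium and 4.86 to 8.16 CPM with LPS, the 8 endothelial and fibroblast markers to 4.65 to 5.68 and 6.96 to 10.5 CPM, and the 10 epithelial markers to 47.6 to 83.4 and 39.4 to 73.2 CPM. In pooled cells, fewer cells of a type and less RNA per cell cannot be told apart. Scnn1b itself lay between 0.0704 and 0.55 CPM in the 6 samples and did not pass the test (adjusted p = 0.646).

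LPS changed a large part of the genes expressed. Of 13729 genes tested, 2652 rose (19.3%) and 2573 fell (18.7%). Among the risen genes, 940 changed by more than 1 on the log2 scale, 465 by more than 2 and 264 by more than 3. Of the fallen genes, 1009, 350 and 152 passed these sizes. The 3 LPS and 3 medium samples did not overlap for 2479 risen (93.5%) and 2297 fallen genes (89.3%), against 43.8% of all genes tested. All 3 pools moved the same way for 2641 risen and 2565 fallen genes. Both follow in large part from the calls, which were made on the same samples. Relative to the effective library size (total counts times the TMM factor), the risen genes held 24.6, 23.6 and 24% in the medium samples. In the LPS samples they held 45.2, 43.5 and 46.7%. The fallen genes went from 31.6, 30.3 and 31.1% to 17.5, 16.8 and 17.3%. The TMM factor was 1.0188 to 1.0527 in medium and 0.951 to 0.9908 in LPS samples. Shares of the total counts were therefore somewhat higher in medium and lower in LPS samples than these values. Nearly all called genes were protein coding (2484 risen and 2425 fallen). The median log2 fold change over all tested genes was -0.02. The TMM method centres the bulk of genes near 0, so that this value cannot show whether total RNA per cell changed. The plot of fold change against level shows rises reaching further than falls.

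**Figure D1:**
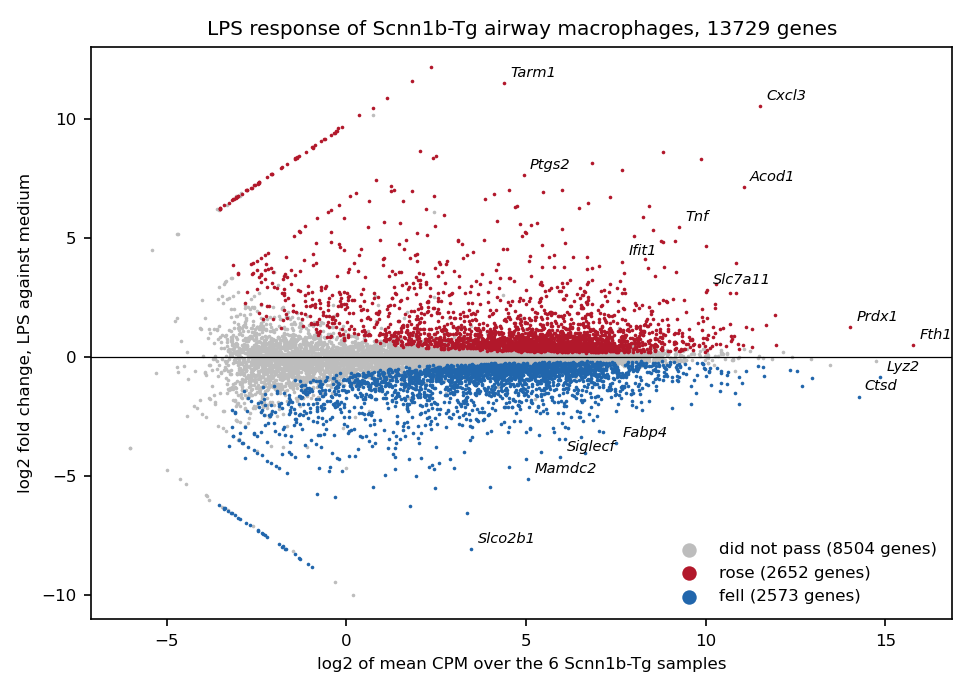
Log2 fold change (LPS against medium, 3 Scnn1b-Tg pools) against the mean level of each gene (log2 CPM over the 6 samples). Each point is a gene, and 2652 risen genes, 2573 fallen genes and the genes that did not pass are coloured apart. Genes at 0 in all 6 samples are not drawn. Cxcl3 lies at 10.51 and Slco2b1 at -8.05.

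The 12 largest fitted rises among well-expressed protein-coding genes were Rnf225, Tarm1, Cxcl3, Cxcl1, Cd38, Tpbg, Cxcl2, Lox, Mmp13, Ptgs2, Acod1 and Traf1. Rnf225, Tarm1, Cd38 and Tpbg were at the floor in medium, so that their place rests on the fitted value, and as bounds Rnf225 was at least 66.8-fold and Tpbg at least 69.7-fold higher. The 12 genes hold neutrophil-attracting chemokines (Cxcl1, Cxcl2, Cxcl3), enzymes of prostaglandin and itaconate synthesis (Ptgs2, Acod1), the NAD-consuming ectoenzyme Cd38, the collagenase Mmp13 and the collagen cross-linking enzyme Lox. Tarm1, an activating receptor of myeloid cells, stood at 0, 0 and 0.0374 CPM in medium and at 48.6, 33.4 and 43.7 CPM with LPS, at least 276-fold higher (adjusted p = 1.73e-09). Cd38 went from 0, 0 and 0.0934 to 8.87, 11.8 and 13.2 CPM, at least 74-fold higher (adjusted p = 3.57e-08). These genes were near silent in medium in every pool and present in every LPS sample. Acod1, whose product makes the antimicrobial metabolite itaconate, stood at 29.5, 30.9 and 30 CPM in medium and at 4274, 3816 and 4581 CPM with LPS, a log2 fold change of 7.13 ± 0.19 (adjusted p = 2.06e-09). Ptgs2, the inducible cyclooxygenase, went from 0.171, 0.571 and 0.187 to 70.8, 58.6 and 52.9 CPM (7.62 ± 0.52, adjusted p = 9.04e-07). Mmp13 went from 0.839, 1.65 and 2.8 to 444, 449 and 315 CPM (7.84 ± 0.39, adjusted p = 8.80e-08). No LPS sample of these 3 genes came near a medium sample, and genes with overlapping groups were not eligible.

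The 12 largest falls were Slco2b1, Dysf, Fabp7, Kazald1, Mamdc2, Cldn1, Rab44, Cnr2, Ucp3, March4, Rgs2 and Frmd4b. Slco2b1, an organic anion transporter, fell from 16.1, 18.5 and 31.9 to 0.158, 0 and 0.0759 CPM (-8.05 ± 0.46, adjusted p = 5.54e-08). Dysf, which encodes the membrane repair protein dysferlin, fell from 24.2, 17.7 and 19.6 to 0.194, 0.285 and 0.171 CPM (-6.55 ± 0.41, adjusted p = 4.21e-07). Both were close to the floor in every LPS sample, so that the size of their falls rests on few reads. Cnr2, the cannabinoid receptor of immune cells, fell from 47.5, 41.5 and 44.5 to 2.08, 2.09 and 1.33 CPM (-4.61 ± 0.28, adjusted p = 3.36e-07). Rgs2, a brake on G protein signalling, fell from 44.4, 68 and 69.1 to 2.78, 3.67 and 2.77 CPM (-4.28 ± 0.16, adjusted p = 1.40e-08). Fabp7, a fatty acid binding protein, fell by 5.51 ± 0.47 on the log2 scale. The mitochondrial uncoupling protein gene Ucp3 fell by 4.54 ± 0.22. The changes within each pool are plotted side by side. They agree in direction for all 24 genes because the choice of genes required it, as it required groups without overlap.

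**Figure D2:**
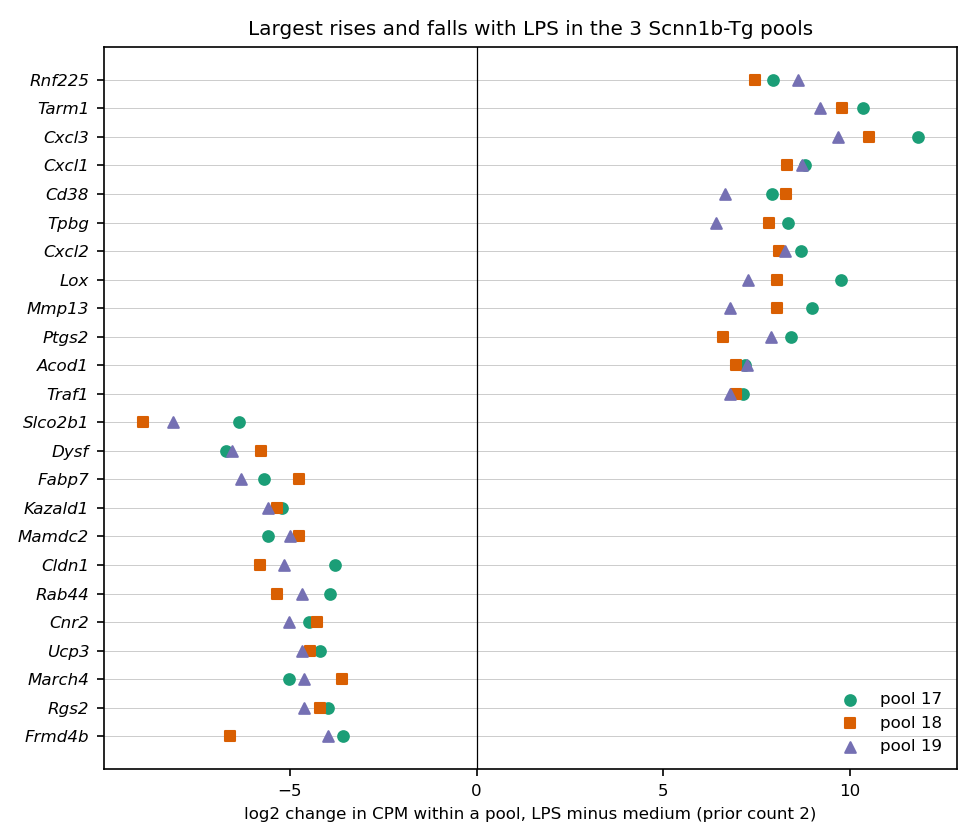
Log2 change of CPM within each Scnn1b-Tg pool (LPS minus medium of the same pool, prior count 2) for the 12 largest rises and the 12 largest falls. Each symbol is 1 pool. All 3 pools lie right of 0 for the risen genes, from 6.42 for Tpbg in pool 19 to 11.83 for Cxcl3 in pool 17, and left of 0 for the fallen genes. The choice of the genes required the same direction in all 3 pools.

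Measured by the gain in CPM, the leading genes were Fth1, Prdx1, Cxcl3, Cybb, Acod1, Slpi, Sqstm1, Cfb, Mmp12 and Slc7a2. These are abundant transcripts, and CPM favours long ones. Fth1, the heavy chain of the iron store ferritin, rose from 47165, 46132 and 46542 to 64556, 66016 and 66708 CPM (0.50 ± 0.09, adjusted p = 0.00098). Prdx1, a peroxidase that removes hydrogen peroxide, rose from 9474, 9490 and 10101 to 19284, 23583 and 27290 CPM (1.26 ± 0.16, adjusted p = 0.00011). Slpi, a secreted inhibitor of neutrophil elastase, rose from 194, 242 and 243 to 2818, 3678 and 3860 CPM (3.93 ± 0.16, adjusted p = 1.85e-08). Every LPS value of these 3 genes lay above every medium value, as the rule of choice required. The largest losses were those of Ctsd, Lyz2, Gpnmb, Psap, Lgals3, Fabp5, Ctsk, Cd9, Itm2b and Laptm5, of which Ctsd, Psap, Ctsk and Laptm5 encode lysosomal proteins. Lyz2, the lysozyme of macrophages, fell from 34699, 38732 and 40350 to 16309, 22706 and 25188 CPM (-0.84 ± 0.13, adjusted p = 0.000353). Ctsd, the aspartic protease cathepsin D, fell from 31605, 27901 and 29678 to 9771, 8349 and 9917 CPM (-1.67 ± 0.09, adjusted p = 1.77e-07).

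To see which pathways moved, 49 gene lists were counted against the shares of 19.3% risen and 18.7% fallen over all genes tested. The highest shares of risen members were in the antiviral interferon-stimulated genes (93.9%), the guanylate-binding proteins and immunity-related GTPases (85.7%), NF-kB and IkB proteins (84.6%), cytokines and growth factors (78.3%) and the proteasome (77.4%). The highest shares of fallen members were in fatty acid oxidation and peroxisome (69%), AM identity (68.2%), the lysosome (67.3%), eicosanoid enzymes and receptors (61.1%), receptors of phagocytosis (57.1%), lipid uptake and storage (56.2%) and cholesterol synthesis (52.2%). Cytosolic ribosomal proteins (4 risen and 0 fallen of 76) and oxidative phosphorylation subunits (1 and 4 of 70) had fewer called members than all genes tested, but with the pool as a block 14 ribosomal proteins rose and 15 oxidative phosphorylation subunits fell. The bar chart of the lists shows these shares, and the lists are described one by one below.

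**Figure D3:**
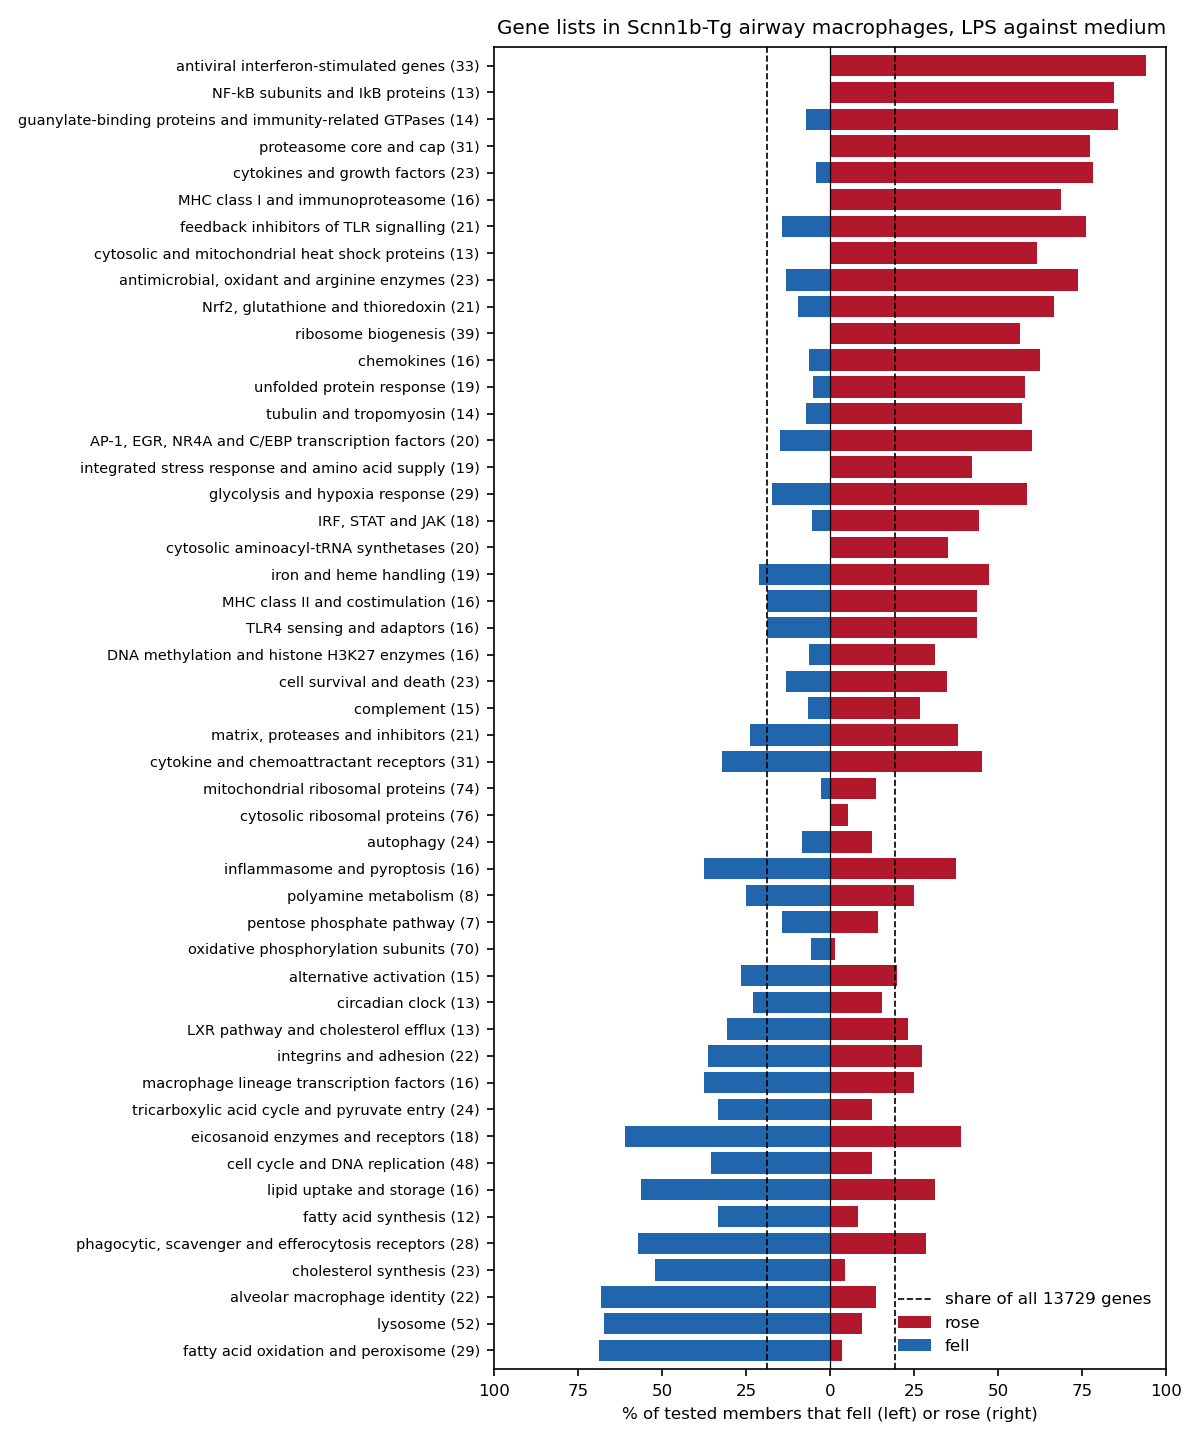
Share of the tested members of each of the 49 gene lists that rose (to the right) or fell (to the left) in Scnn1b-Tg AMs, LPS against medium. The number tested is in brackets, and the dashed lines mark the 19.3% and 18.7% of all 13729 genes. The list of antiviral interferon-stimulated genes has 93.9% risen and that of fatty acid oxidation and peroxisome 69% fallen members.

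Chemokines that attract neutrophils were among the genes with the largest rises. Of 20 chemokines listed, 18 were in the table and 16 were tested, of which 10 rose and 1 fell, with a median log2 fold change of 4.14 (3.41 with genes at the floor set to their bound). Cxcl3 went from 1.35, 4.43 and 7.19 CPM in medium to 5046, 6545 and 5963 CPM with LPS (10.51 ± 0.53, adjusted p = 9.06e-08), Cxcl1 from 1.06, 3.39 and 2.62 to 490, 1084 and 1122 CPM (8.58 ± 0.34, adjusted p = 1.73e-08), and Cxcl2 from 3.01, 7.8 and 7.19 to 1249, 2168 and 2211 CPM (8.32 ± 0.32, adjusted p = 1.57e-08). These 3 are ligands of the neutrophil receptor CXCR2 and are near neighbours on chromosome 5 with similar sequences, so that reads may be shared between them. Pool 17 had the lowest level of each of the 3 in both conditions, and the groups did not overlap. Ccl5, which attracts T cells and monocytes, went from 1.78, 3.12 and 2.05 to 144, 204 and 181 CPM (6.25 ± 0.15, adjusted p = 1.73e-09). Cxcl10, an interferon-induced ligand of CXCR3 that was picked after its values were seen, went from 0.359, 0.951 and 0.822 to 28.8, 35.3 and 43.5 CPM (5.68 ± 0.28, adjusted p = 8.71e-08). Not every chemokine moved: Ccl2 and Ccl7, which draw monocytes, had adjusted p values of 0.368 and 0.81, and Ccl17 and Ccl22, known from alternative activation, of 0.796 and 0.506. Ccl6 was lower at 58.4, 91.8 and 235 CPM with LPS against 201, 228 and 460 CPM, with overlapping groups (-1.27 ± 0.36, adjusted p = 0.0156), and its call was lost without LPS sample 17 (adjusted p = 0.0745), without LPS sample 18 (0.0565), without medium sample 19 (0.0842) or without the batch term (0.0543).

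The promoters of the 3 CXCR2 ligands are printed because these genes led the response and each window holds matches to the kappaB motif GGNNNTTCC (searched on both strands), the binding letters of NF-kB. Shown are the 140 bases before the start of each gene on its own strand, from RefSeq on GRCm38.p6, with the matches in capitals: Cxcl1 at chr5:90891105-90891244, Cxcl2 at chr5:90903759-90903898 and Cxcl3 at chr5:90785961-90786100, all on the plus strand.
Cxcl1: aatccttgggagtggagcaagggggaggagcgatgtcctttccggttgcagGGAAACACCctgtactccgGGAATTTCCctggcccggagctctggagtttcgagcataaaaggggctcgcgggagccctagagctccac
Cxcl2: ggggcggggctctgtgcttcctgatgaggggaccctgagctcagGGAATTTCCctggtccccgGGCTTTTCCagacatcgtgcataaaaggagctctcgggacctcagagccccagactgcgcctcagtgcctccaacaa
Cxcl3: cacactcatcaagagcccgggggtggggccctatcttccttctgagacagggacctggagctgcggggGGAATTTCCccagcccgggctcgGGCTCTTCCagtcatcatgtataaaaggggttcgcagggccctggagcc
Each of the 3 promoters holds 2 matches, 1 of them the same 9 letters in all. In windows of 300 bases (250 before and 50 after the start), the motif occurred in 6 of 10 chemokine genes with a promoter sequence (60%), in 6 of 9 genes of the NF-kB and IkB list (66.7%) and in 25.6% of all 9731 tested genes with one. The share was 31.2% among cytokines and growth factors, and it was also high in other lists, with 57.1% in the pentose phosphate pathway and 50% in lipid uptake and storage, all of few genes. Over all risen genes the share was 26% and over all fallen genes 24.3%, close to that of all genes. A match is a sequence description and does not show that a factor bound there.

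Among cytokines and growth factors, 27 were listed and 23 tested, of which 18 rose and 1 fell, with a median log2 fold change of 2.70. Il6, which drives the acute phase response, was at 0.0513, 0 and 0 CPM in medium and at 7.94, 6.09 and 10.8 CPM with LPS, at least 54.3-fold higher (adjusted p = 4.81e-08). Csf3, the growth factor of neutrophils, was at 0 in all medium samples and at 1.16, 2.19 and 1.35 CPM with LPS, at least 10.3-fold higher (adjusted p = 0.000315). Il1b went from 2.09, 3.02 and 1.98 to 158, 272 and 195 CPM (6.46 ± 0.26, adjusted p = 1.85e-08). None of these groups overlapped. Inhba, which encodes the activin A subunit, rose by 6.70 ± 0.54 on the log2 scale, from 0.822, 2.26 and 6.65 to 220, 331 and 403 CPM (adjusted p = 2.97e-06). Tnf, picked after its values were seen as the classical product of this pathway, went from 17, 35.1 and 32.7 to 822, 1371 and 1431 CPM (5.43 ± 0.17, adjusted p = 5.25e-09). For Tnf, as for Cxcl1, pool 17 was lowest in both conditions. The single member that fell was Igf1, a growth factor made by resident macrophages, from 112, 94.5 and 119 to 17, 19.8 and 28.8 CPM (-2.34 ± 0.17, adjusted p = 1.47e-06). Tgfb1 (adjusted p = 0.544), Il18 (0.445) and Csf1 (0.119), which encodes the macrophage growth factor M-CSF, did not pass. Il10, Il12a, Il23a and Csf2 were too low to be tested.

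The LPS sensing machinery moved less than its targets, apart from Cd14. Of 16 tested genes of TLR4 sensing and its adaptors, 7 rose and 3 fell (median 0.37). Cd14, the co-receptor that hands LPS to TLR4, rose from 32.1, 37.3 and 34.9 to 509, 674 and 611 CPM (4.10 ± 0.10, adjusted p = 1.73e-09). Ikbke, a kinase that activates interferon regulatory factors, rose by 1.66 ± 0.11 (adjusted p = 7.90e-07), and Ticam1, the adaptor TRIF, by 0.71 ± 0.13 (adjusted p = 0.00116). Tlr4 itself was at 50.8, 39.5 and 43.6 CPM in medium and 43.6, 32.4 and 32.6 CPM with LPS, and Ly96 did not pass either (adjusted p = 0.63 and 0.193). Ticam2, the bridging adaptor TRAM, fell by 0.45 ± 0.10 (adjusted p = 0.00384).

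NF-kB subunits and their inhibitors rose as a group, with 11 risen and 0 fallen of 13 (median 1.70). The 4 largest rises were those of Nfkbiz, Nfkbie, Nfkbia and Nfkb2, of which Nfkbie and Nfkbia encode IkB proteins that hold NF-kB in the cytoplasm and Nfkbiz a nuclear IkB protein that helps NF-kB to switch on secondary genes. Nfkbiz went from 2.82, 3.73 and 3.1 to 83.6, 80.5 and 86.9 CPM (4.70 ± 0.13, adjusted p = 3.36e-09), and Nfkbia from 147, 177 and 145 to 659, 854 and 853 CPM (2.33 ± 0.12, adjusted p = 9.22e-08). The kinase subunit genes Chuk (adjusted p = 0.141) and Ikbkb (0.0544) did not pass, while Ikbkb was called lower with the pool as a block.

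Negative regulators of the pathway rose alongside: 16 of 21 tested feedback inhibitors rose and 3 fell (median 1.56). Dusp4, a phosphatase of MAP kinases, was at the floor in medium and at 11.6, 8.83 and 12 CPM with LPS, at least 70.9-fold higher (adjusted p = 1.77e-08). Socs3, which restrains signalling by IL-6 receptors, went from 5.19, 5.33 and 5.4 to 120, 106 and 88.5 CPM (4.29 ± 0.15, adjusted p = 8.41e-09). Zc3h12a, the RNase Regnase-1 that degrades cytokine mRNAs, rose from 16.8, 25.2 and 23.6 to 184, 185 and 201 CPM (3.13 ± 0.16, adjusted p = 8.99e-08), and its relative Zc3h12c by 4.19 ± 0.16. The receptor antagonist Il1rn rose from 33.8, 39.7 and 33.7 to 209, 253 and 294 CPM (2.81 ± 0.13, adjusted p = 3.84e-08). None of these groups overlapped. Dusp5 fell by 0.67 ± 0.12 (adjusted p = 0.00144), and Sigirr, an inhibitory member of the IL-1 receptor family, was at the floor in LPS samples and at least 2.9-fold higher in medium (adjusted p = 0.0105).

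Transcription factors of the AP-1, EGR, NR4A and C/EBP families split by member at 12 h: 12 of 20 rose and 3 fell (median 0.52). Fosl1 rose from 0.856, 2.15 and 2.24 to 40.2, 39.6 and 38.1 CPM (4.53 ± 0.29, adjusted p = 4.58e-07), and Ets2 from 28.3, 24.5 and 23 to 191, 153 and 169 CPM (2.76 ± 0.11, adjusted p = 1.59e-08). The immediate early genes Fos, Egr1 and Jun were the 3 that fell: Fos from 18.1, 22.3 and 29.1 to 7.99, 9.57 and 6.98 CPM (-1.48 ± 0.17, adjusted p = 4.78e-05), Egr1 by 0.61 ± 0.15 and Jun by 0.41 ± 0.09. Atf3, an early repressor, did not pass (adjusted p = 0.879). Of 18 interferon regulatory factors, STATs and JAKs, 8 rose and 1 fell (median 0.29). Jak2, a kinase of cytokine receptors, rose by 2.22 ± 0.09 (adjusted p = 1.54e-08), Irf7, the amplifier of type I interferon, by 1.83 ± 0.26 (adjusted p = 0.000203) and Irf1 by 1.60 ± 0.10 (adjusted p = 3.84e-07). Irf8, a factor of mononuclear phagocytes, fell from 185, 182 and 205 to 104, 90 and 121 CPM (-0.86 ± 0.11, adjusted p = 7.73e-05). Irf3 and Stat3, which are regulated mainly at the protein level, had adjusted p values of 0.569 and 0.102. Without LPS sample 17 or without medium sample 18, 5 rather than 8 members of this list were called higher.

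The interferon-stimulated genes moved together, with 31 of 33 risen, 0 fallen and a median log2 fold change of 1.65 (1.51 with genes at the floor set to their bound). Ifit1, which binds viral RNA caps, went from 26.2, 18.9 and 28 to 463, 269 and 425 CPM (4.00 ± 0.46, adjusted p = 4.02e-05). Oasl1 went from 5.03, 9.53 and 14.8 to 133, 88.6 and 149 CPM (3.77 ± 0.39, adjusted p = 1.82e-05), and the ubiquitin-like modifier Isg15 from 38.2, 37.8 and 52.9 to 256, 306 and 420 CPM (2.90 ± 0.24, adjusted p = 3.26e-06). Pool 18 had the lowest LPS level of Ifit1 and Oasl1, and the groups did not overlap. The members that did not pass were Oas3 (adjusted p = 0.191, called higher with the pool as a block) and Samhd1, at 156, 152 and 165 CPM in medium and 170, 148 and 165 CPM with LPS (adjusted p = 0.841). The measured monocyte markers, of which Ms4a4c went from 0.77, 0.342 and 0.112 to 3.43, 5.17 and 5.67 CPM, moved in the same direction, and their part in these results was not tested.

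Guanylate-binding proteins and immunity-related GTPases, which attack vacuoles that hold pathogens, rose for 12 of 14 tested members and fell for 1 (median 2.34, 2.04 with bounds). Gbp2b went from 1.06, 0.628 and 0.28 to 54, 44.7 and 60.6 CPM (6.31 ± 0.35, adjusted p = 1.89e-07), Gbp3 from 11.7, 7.47 and 13.1 to 192, 138 and 255 CPM (4.17 ± 0.36, adjusted p = 4.23e-06), and Gbp2 from 44.1, 45.2 and 53 to 613, 498 and 755 CPM (3.72 ± 0.20, adjusted p = 1.48e-07). Gbp8 went the other way, from 14.2, 12.2 and 13.5 to 6.15, 3.59 and 6.49 CPM (-1.30 ± 0.21, adjusted p = 0.000564). Members of this family are similar in sequence, so that reads may be split between them.

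The promoters of Ifit1, Isg15 and Ifit3 (the last picked after its values were seen) are shown because they carry repeated matches to the interferon response motif GAAANNGAA (searched on both strands), the letters bound by the factor ISGF3 and by IRFs. The 140 bases before the start are given 5' to 3' on the gene's strand, with matches in capitals, from RefSeq on GRCm38.p6: Ifit1 at chr19:34640749-34640888 (plus), Isg15 at chr4:156200819-156200958 (minus) and Ifit3 at chr19:34583389-34583528 (plus). Matches that overlap run together.
Ifit1: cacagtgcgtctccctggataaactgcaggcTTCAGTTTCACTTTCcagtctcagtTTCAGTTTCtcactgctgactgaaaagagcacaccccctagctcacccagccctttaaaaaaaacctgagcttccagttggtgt
Isg15: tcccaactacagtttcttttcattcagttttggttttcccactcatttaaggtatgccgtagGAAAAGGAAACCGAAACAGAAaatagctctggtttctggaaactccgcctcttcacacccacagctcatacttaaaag
Ifit3: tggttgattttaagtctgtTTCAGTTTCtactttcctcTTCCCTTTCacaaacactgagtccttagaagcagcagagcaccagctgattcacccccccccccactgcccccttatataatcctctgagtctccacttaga
Ifit1 and Isg15 hold 3 matches each in the part shown, and Ifit3 holds 2 here and 3 in its whole window. In the windows of 300 bases, 15 of 24 interferon-stimulated genes with a promoter sequence held the motif (62.5%) and 9 of 10 guanylate-binding proteins and GTPases (90%), against 8.84% of all tested genes, 10.3% of risen and 9.08% of fallen genes, and 13.4% of genes that rose by more than 1 on the log2 scale.

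Of 16 genes of MHC class I and the immunoproteasome, 11 rose and 0 fell (median 0.58). Psme2, an activator of the immunoproteasome, rose by 1.56 ± 0.13 (adjusted p = 3.54e-06), the peptide transporter Tap1 by 1.41 ± 0.17 (adjusted p = 5.15e-05) and the loading factor Tapbp by 1.22 ± 0.17 (adjusted p = 0.000181), while the heavy chain gene H2-D1 was at 5051, 5460 and 5830 CPM in medium and 4677, 5406 and 6272 CPM with LPS (adjusted p = 0.984). The list of MHC class II and costimulation was mixed, with 7 risen and 3 fallen of 16 (median 0.68). Cd40, the receptor for T cell help, went from 0.359, 0.0951 and 0.149 to 9.98, 11.7 and 17.7 CPM (5.96 ± 0.48, adjusted p = 2.91e-06), and the ICOS ligand gene Icosl rose by 1.63 ± 0.13 (adjusted p = 1.93e-06). Cd80 and Cd86, the ligands of CD28, did not pass (adjusted p = 0.94 and 0.438). H2-Ab1, picked after its values were seen, differed strongly between pools, at 53, 20.2 and 12.3 CPM in medium and 133, 55.8 and 39.5 CPM with LPS, so that the groups overlapped although every pool rose (1.44 ± 0.42, adjusted p = 0.0187). Its call was lost without LPS sample 17 (adjusted p = 0.129), without medium sample 18 (0.0606) or 19 (0.0686) and without the batch term (0.0509). H2-Aa and Cd74, the invariant chain, passed only with the pool as a block (adjusted p = 0.333 and 0.534 without it). H2-DMa, which loads peptides on class II, fell from 43, 52.6 and 49.1 to 18.8, 19.7 and 14.7 CPM (-1.44 ± 0.13, adjusted p = 5.19e-06).

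Receptors for cytokines and chemoattractants divided, with 14 risen and 10 fallen of 31 (median -0.01). Receptors for bacterial and lipid signals were among the risen: Fpr1, a receptor of bacterial formyl peptides, went from 27, 40.6 and 43.8 to 849, 1102 and 1318 CPM (4.88 ± 0.16, adjusted p = 8.00e-09), Fpr2 rose by 3.78 ± 0.15 (adjusted p = 2.11e-08), and Gpr84, a receptor of medium-chain fatty acids, went from 2.12, 4.09 and 2.91 to 112, 133 and 130 CPM (5.37 ± 0.20, adjusted p = 1.40e-08). Cxcr2, the receptor of the chemokines above, fell from 9.64, 5.55 and 7.3 to 0.317, 0 and 0.38 CPM (-4.98 ± 0.42, adjusted p = 4.30e-06), and it also stands among the neutrophil markers. Tgfbr2, a receptor of TGF-beta, on which AMs depend, fell from 570, 400 and 498 to 139, 83.9 and 95.4 CPM (-2.22 ± 0.14, adjusted p = 4.67e-07). Il6ra fell by 2.12 ± 0.22 (adjusted p = 1.84e-05) and Cxcr4, picked after its values were seen, by 1.77 ± 0.10 (adjusted p = 1.74e-07). No LPS sample of these genes overlapped a medium sample.

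Inflammasome genes were evenly split, with 6 risen and 6 fallen of 16. The sensors and caspases that LPS is known to prime rose: Nlrp3 from 4.55, 5.23 and 5.59 to 106, 93.4 and 86.4 CPM (4.21 ± 0.15, adjusted p = 1.17e-08), Casp4, which binds cytosolic LPS, from 10.3, 13.5 and 10.1 to 43.8, 54.3 and 62 CPM (2.23 ± 0.13, adjusted p = 2.66e-07) and Casp1 by 1.11 ± 0.10 (adjusted p = 9.06e-06). Nlrp1b fell by 2.94 ± 0.29 (adjusted p = 1.22e-05) and the flagellin sensors Naip6 and Naip5 by 0.89 ± 0.16 and 0.81 ± 0.14. Of 23 tested genes of cell survival and death, 8 rose and 3 fell (median 0.23). Fas, a death receptor, rose from 12.1, 14.3 and 11.7 to 79.8, 96.2 and 87.6 CPM (2.79 ± 0.14, adjusted p = 8.72e-08), and so did Cflar, which blocks caspase-8 at that receptor, from 49.2, 55 and 47.9 to 237, 218 and 227 CPM (2.17 ± 0.08, adjusted p = 1.57e-08). Bbc3, a pro-death member of the BCL2 family, fell by 0.86 ± 0.10 (adjusted p = 4.69e-05), and Mcl1, Bax and Bcl2l1 did not pass (adjusted p = 0.492, 0.616 and 0.0904).

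Antimicrobial and oxidant genes rose for 17 of 23 tested members and fell for 3 (median 1.76, 1.29 with bounds). Lcn2, which binds bacterial siderophores, went from 0.291, 0.437 and 0.336 to 44.3, 43.3 and 50.5 CPM (7.02 ± 0.43, adjusted p = 3.13e-07). Cybb, the catalytic subunit of the phagocyte NADPH oxidase, rose from 1945, 1706 and 1727 to 6833, 5414 and 5984 CPM (1.76 ± 0.11, adjusted p = 4.21e-07), whereas its partner Cyba did not pass (adjusted p = 0.665). Sod2, the mitochondrial superoxide dismutase, picked after its values were seen, rose from 271, 299 and 239 to 1573, 1912 and 1883 CPM (2.73 ± 0.13, adjusted p = 7.30e-08). The groups of Lcn2, Cybb and Sod2 did not overlap. Slc7a2, an arginine transporter, rose by 3.06 ± 0.13 (adjusted p = 3.14e-08), while Nos2, the inducible nitric oxide synthase that uses arginine, stayed low: it was at 0 in all medium samples and at 0.194, 0.533 and 0.38 CPM with LPS, at least 2.42-fold higher (adjusted p = 0.0279). Leaving out any of 5 of the 6 samples raised the adjusted p of Nos2 to between 0.0586 and 0.076. Camp, a peptide of neutrophil granules that stands also among the neutrophil markers, was at 0 in medium and at 0.264, 0.475 and 0.38 CPM with LPS, at least 2.45-fold higher (adjusted p = 0.0156), and S100a8 went from 3.65, 5.78 and 4.17 to 7.62, 14.2 and 11.5 CPM, while S100a9 was at the floor in all 6 samples. Arg1, the arginase of alternative activation, was lower with overlapping groups (-2.80 ± 0.63, adjusted p = 0.00396).

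Every one of the 18 tested genes of eicosanoid metabolism was called, 7 higher and 11 lower (median -0.58). Among the risen were enzymes on the way to prostaglandin E2: Pla2g4a, which releases arachidonic acid, by 1.44 ± 0.08 (adjusted p = 1.68e-07), Ptgs2 as given above, and the terminal synthase Ptges from 30.5, 36.2 and 25.1 to 869, 965 and 780 CPM (4.83 ± 0.19, adjusted p = 1.59e-08). Among the fallen were enzymes of leukotriene synthesis: Alox5, picked after its values were seen, from 23.6, 23.7 and 25.9 to 4.17, 5.42 and 2.3 CPM (-2.62 ± 0.24, adjusted p = 6.88e-06) and Ltc4s, the leukotriene C4 synthase, from 46.9, 59.5 and 65.3 to 5.58, 4.75 and 8.65 CPM (-3.17 ± 0.22, adjusted p = 8.51e-07). The leukotriene receptor gene Cysltr1 fell by 3.26 ± 0.47 (adjusted p = 0.000217), and the constitutive cyclooxygenase Ptgs1 by 3.07 ± 0.43 (adjusted p = 0.000207), with LPS values of 0.0528, 0.342 and 0.949 CPM against 1.68, 4.45 and 4.93 CPM. Hpgd, which inactivates prostaglandins, was at 0 with LPS and at least 1.52-fold higher in medium (adjusted p = 0.00509). In the complement list, 4 of 15 rose and 1 fell. Cfb, the protease of the alternative pathway, rose from 520, 467 and 489 to 3255, 2889 and 3348 CPM (2.68 ± 0.12, adjusted p = 3.84e-08), and C3 rose by 0.72 ± 0.17 (adjusted p = 0.00709).

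**Figure D4:**
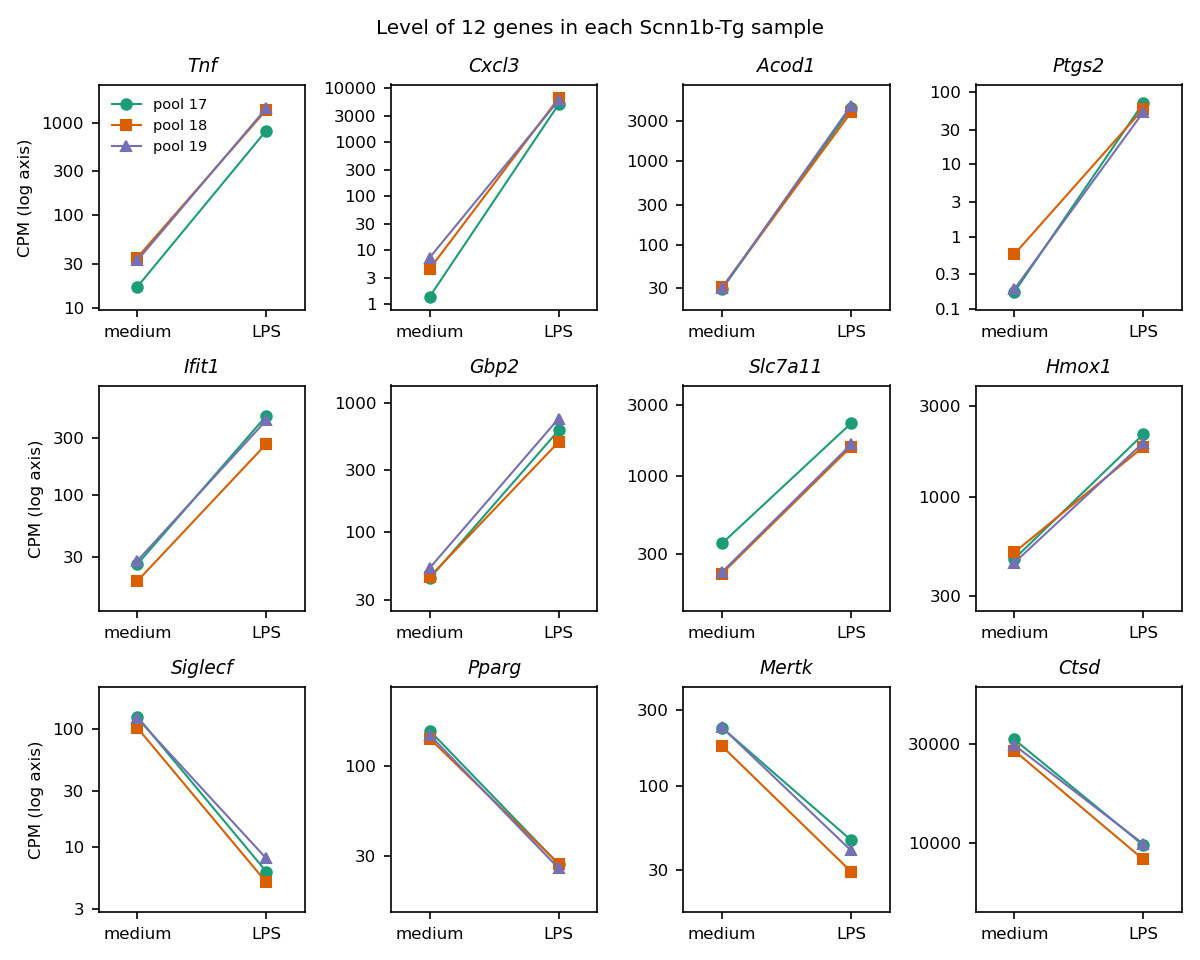
CPM (log axis) of 12 genes in medium and LPS samples of Scnn1b-Tg pools 17, 18 and 19, with a line joining the 2 samples of a pool. Tnf, Cxcl3, Acod1, Ptgs2, Ifit1, Gbp2, Slc7a11 and Hmox1 lie higher with LPS in every pool and Siglecf, Pparg, Mertk and Ctsd lower, as for Acod1 with 29.5 to 30.9 CPM in medium and 3816 to 4581 CPM with LPS.

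The genes that mark resident AMs fell. Of 22 AM identity genes, 15 fell and 3 rose, with a median log2 fold change of -1.25. Siglecf, the surface lectin by which AMs are sorted, fell from 128, 103 and 124 to 6.25, 5.08 and 8.08 CPM (-4.19 ± 0.19, adjusted p = 3.84e-08), Fabp4, a fatty acid binding protein, from 287, 334 and 387 to 18.2, 28.7 and 36.6 CPM (-3.62 ± 0.23, adjusted p = 4.14e-07), and Pparg, the lipid-sensing receptor of AM identity that was picked after its values were seen, from 160, 144 and 151 to 27, 27.2 and 25.6 CPM (-2.51 ± 0.07, adjusted p = 3.36e-09). The 3 pools were alike and the groups lay far apart. Krt79 fell by 3.10 ± 0.56 (adjusted p = 0.00113) and Krt19 by 2.82 ± 0.21 (adjusted p = 1.34e-06). Marco, the scavenger receptor for unopsonised bacteria, was an exception and rose from 429, 382 and 725 to 1415, 1088 and 2220 CPM (1.62 ± 0.27, adjusted p = 0.000641), as did the carbonic anhydrase Car4 by 1.30 ± 0.27 (adjusted p = 0.00256). Lpl (adjusted p = 0.814) and Bhlhe41 (0.251) did not pass, nor did Chil3 at 11503, 11904 and 14406 CPM in medium and 8077, 9194 and 12427 CPM with LPS (adjusted p = 0.121), which was called lower with the pool as a block.

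Lineage transcription factors moved less uniformly, with 4 risen and 6 fallen of 16 (median -0.17). Klf4, a factor of monocytes and macrophages, fell by 1.71 ± 0.14 (adjusted p = 3.43e-06), Klf2 by 1.60 ± 0.15 (adjusted p = 1.14e-05) and Cebpa, picked after its values were seen, by 1.26 ± 0.11 (adjusted p = 5.53e-06). Mitf and Tfec, which belong to the same family of lysosomal regulators as Tfeb, each rose by 0.78 (SE 0.08 and 0.11). Spi1, which encodes PU.1, the master factor of the myeloid lineage, was at 450, 479 and 488 CPM in medium and 517, 513 and 511 CPM with LPS and did not pass (adjusted p = 0.188). Of 15 genes of alternative activation, 4 fell (26.7%) and 3 rose (20%), against 18.7% and 19.3% of all genes tested. Among the fallen was the mannose receptor Mrc1, from 378, 263 and 287 to 118, 88 and 76.4 CPM (-1.72 ± 0.14, adjusted p = 2.34e-06).

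Phagocytic and scavenger receptors fell for 16 of 28 tested members and rose for 8 (median -0.67). The fallen were led by a receptor of IgG, Fcgr4, from 116, 110 and 104 to 9.65, 9.05 and 11.8 CPM (-3.44 ± 0.13, adjusted p = 1.40e-08), and by Mertk, the receptor by which AMs take up dying cells, from 232, 178 and 233 to 46.2, 29.4 and 39.8 CPM (-2.49 ± 0.16, adjusted p = 3.87e-07). Trem2, a receptor of lipids, fell by 2.37 ± 0.17 (adjusted p = 9.66e-07) and Fcgr3 by 2.03 ± 0.15 (adjusted p = 1.36e-06). Among the risen was the C-type lectin gene Clec4e, which encodes Mincle, from 88.8, 93.8 and 56.5 to 1944, 2059 and 2004 CPM (4.66 ± 0.24, adjusted p = 9.99e-08). Its neighbour Clec4d rose by 1.99 ± 0.17 (adjusted p = 4.29e-06) and Trem1, an amplifier of inflammation, by 2.00 ± 0.16 (adjusted p = 2.20e-06). The scavenger receptor Marco, described above, also rose. All of these had groups that did not overlap. Axl (adjusted p = 0.168), a relative of Mertk, and Cd36 (0.0678) passed only with the pool as a block.

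Matrix enzymes rose for 8 of 21 tested members and fell for 5. Lox went from 0.223, 0.856 and 1.42 to 227, 234 and 225 CPM (8.13 ± 0.43, adjusted p = 1.26e-07), and Mmp14, a membrane-bound activator of other metalloproteinases, from 18.6, 17.1 and 9.6 to 592, 483 and 434 CPM (5.06 ± 0.20, adjusted p = 1.54e-08). Mmp12, the macrophage elastase, rose from 391, 388 and 560 to 3203, 2549 and 2680 CPM (2.66 ± 0.20, adjusted p = 1.61e-06). The metalloproteinase inhibitor Timp2 fell by 1.72 ± 0.19 (adjusted p = 3.27e-05), Mmp19 by 1.50 ± 0.15 (adjusted p = 1.28e-05) and osteopontin, Spp1, from 1708, 2155 and 2128 to 646, 750 and 794 CPM (-1.45 ± 0.17, adjusted p = 5.20e-05). Dcn, a fibroblast marker, went from 0.171, 0 and 0 to 4.44, 8.83 and 4.42 CPM over the same samples, while Pdgfra, another fibroblast marker, fell (-1.17, adjusted p = 0.00126) and the collagen genes Col1a1, Col1a2 and Col3a1 lay at or below 0.149 CPM. The part of such cells in the matrix genes was not tested. Of 22 integrins and adhesion molecules, 6 rose and 8 fell. Icam1, the ligand of leukocyte integrins, rose from 158, 152 and 130 to 724, 726 and 828 CPM (2.38 ± 0.11, adjusted p = 6.32e-08) and Itga5, a fibronectin receptor subunit, by 1.58 ± 0.14 (adjusted p = 5.18e-06). Itgb5 fell by 1.69 ± 0.14 (adjusted p = 3.45e-06) and Itga6 by 1.64 ± 0.24 (adjusted p = 0.000233).

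Of 16 genes of lipid uptake and storage, 9 fell and 5 rose (median -0.57). Besides Fabp4, Pdk4, which steers mitochondria towards fatty acids, fell from 5.65, 6.92 and 10.2 to 0.757, 0.533 and 1.2 CPM (-3.18 ± 0.29, adjusted p = 8.14e-06), Angptl4, a PPAR target that inhibits lipoprotein lipase, by 2.36 ± 0.14 (adjusted p = 2.79e-07) and Fabp5 from 3021, 3066 and 3311 to 680, 778 and 923 CPM (-1.99 ± 0.17, adjusted p = 4.31e-06). Acsl1, which activates long-chain fatty acids, rose from 59.8, 49.2 and 43.6 to 218, 307 and 241 CPM (2.34 ± 0.23, adjusted p = 1.22e-05). In the list of the LXR pathway and cholesterol efflux, 3 of 13 rose (23.1%) and 4 fell (30.8%, median -0.17), against 19.3% and 18.7% of all genes tested. The 2 cholesterol exporters moved apart, as Abca1 rose from 25.4, 18.6 and 11.8 to 102, 68.9 and 46.3 CPM (1.95 ± 0.27, adjusted p = 0.000175) and Abcg1 fell from 404, 315 and 373 to 149, 112 and 114 CPM (-1.55 ± 0.13, adjusted p = 2.87e-06). Their regulator Nr1h3, which encodes LXR alpha, did not pass (adjusted p = 0.531).

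In cholesterol synthesis, 12 of 23 genes fell and 1 rose (median -0.40), and without the batch term 6 of the list were called lower. Hmgcs1, the first committed enzyme, fell by 0.96 ± 0.12 (adjusted p = 8.51e-05), Tm7sf2 by 1.43 ± 0.20 (adjusted p = 0.000189) and Sqle by 0.75 ± 0.16 (adjusted p = 0.00333), and the pools differed in level, as for Hmgcs1 with 182, 108 and 140 CPM in medium and 86.1, 59.7 and 73.2 CPM with LPS. The master regulator Srebf2 did not pass (adjusted p = 0.812). Fatty acid synthesis had 4 fallen and 1 risen of 12. Fatty acid oxidation fell most broadly, with 20 of 29 genes fallen and 1 risen (median -0.49). Acox3, a peroxisomal oxidase, fell from 164, 137 and 159 to 51.4, 40.7 and 39.7 CPM (-1.81 ± 0.15, adjusted p = 3.42e-06), the peroxisomal enzyme Hsd17b4 by 1.24 ± 0.08 (adjusted p = 6.51e-07) and the mitochondrial enzyme Hadh by 1.13 ± 0.10 (adjusted p = 6.28e-06).

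Glycolysis and hypoxia response genes rose for 17 of 29 members and fell for 5 (median 0.53). Slc2a1, the glucose transporter GLUT1, rose from 62, 72.5 and 80.8 to 250, 218 and 254 CPM (1.76 ± 0.11, adjusted p = 3.65e-07) and Eno2 from 0.599, 1.52 and 0.915 to 6.27, 9.85 and 8.6 CPM (3.04 ± 0.23, adjusted p = 1.98e-06). Hif1a, the factor that drives these genes, picked after its values were seen, rose from 167, 117 and 120 to 364, 242 and 244 CPM (1.06 ± 0.11, adjusted p = 1.48e-05). Aldoc fell by 1.62 ± 0.14 (adjusted p = 4.90e-06) and Pdk1, which holds back the entry of pyruvate into the tricarboxylic acid cycle, by 1.39 ± 0.19 (adjusted p = 0.000149), and Pkm did not pass (adjusted p = 0.615). The count of fallen members was 3 without LPS sample 18 or 19 or medium sample 17 or 18. In the tricarboxylic acid cycle, 8 of 24 fell and 3 rose, and 13 fell with the pool as a block. Idh1 fell by 1.07 ± 0.08 (adjusted p = 1.12e-06) and Suclg2 by 1.39 ± 0.10 (adjusted p = 1.19e-06), while Pcx, which feeds oxaloacetate into the cycle, rose from 21.1, 21.4 and 23.8 to 214, 116 and 225 CPM (3.06 ± 0.23, adjusted p = 1.37e-06). The tricarboxylic acid list had 5 fallen members without LPS sample 17 or 19 or medium sample 18. Subunits of oxidative phosphorylation had a median of -0.20, with 1 risen and 4 fallen of 70, and 1 and 15 with the pool as a block. In the pentose phosphate pathway 1 of 7 rose (Pgd, 0.44 ± 0.10) and 1 fell (G6pdx, -0.49 ± 0.09), 14.3% each against 19.3% and 18.7% of all genes tested.

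Genes for making and handling proteins rose by small amounts in many members. Ribosome biogenesis had 22 risen and 0 fallen of 39 (median 0.34), led by Rrs1 from 53.8, 48.8 and 50.1 to 128, 125 and 139 CPM (1.36 ± 0.07, adjusted p = 1.26e-07), Nop58 (0.68 ± 0.10), Wdr75 (0.66 ± 0.08) and Wdr74 (0.63 ± 0.07). The ribosomal proteins themselves moved little, with 4 of 76 cytosolic members risen (median 0.13) and 14 with the pool as a block, and 10 of 74 mitochondrial members risen and 2 fallen (median 0.02). Of 20 cytosolic aminoacyl-tRNA synthetases, 7 rose (median 0.22), a count that ranged from 2 to 4 without LPS sample 17 or 19, without medium sample 17 or 18 or without the batch term. The proteasome had 24 risen and 0 fallen of 31 (median 0.42), with Psma5 at 1.09 ± 0.13 (adjusted p = 7.32e-05) and the cap subunits Psmd7 at 0.89 ± 0.06 (adjusted p = 9.92e-07) and Psmd11 at 0.83 ± 0.12 (adjusted p = 0.00022). Heat shock proteins had 8 risen and 0 fallen of 13 (median 0.74), with the chaperones Hsp90aa1 at 1.07 ± 0.09 (adjusted p = 3.08e-06) and Hspa8 at 1.00 ± 0.10 (adjusted p = 1.10e-05). In the unfolded protein response 11 of 19 rose and 1 fell (median 0.26), with Creld2, Manf and Dnajb9 at 0.84 ± 0.11, 0.83 ± 0.13 and 0.77 ± 0.08, and 7 rose without LPS sample 17 or 19, without medium sample 17 or 18 or without the batch term. Hspa5, the chaperone BiP of the endoplasmic reticulum, rose from 1644, 888 and 1312 to 2321, 1870 and 2177 CPM (0.74 ± 0.15, adjusted p = 0.00211), while the sensor kinase gene Eif2ak3 fell by 0.61 ± 0.11 (adjusted p = 0.00101).

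Genes of amino acid supply rose in part. Of 19 genes of the integrated stress response and amino acid supply, 8 rose and 0 fell (median 0.25). Slc7a11, the cystine importer, went from 351, 220 and 225 to 2256, 1570 and 1627 CPM (2.79 ± 0.13, adjusted p = 5.57e-08), and Slc3a2, its partner chain, from 417, 347 and 532 to 2315, 1702 and 2091 CPM (2.22 ± 0.18, adjusted p = 2.43e-06). Phgdh, the first enzyme of serine synthesis, rose by 1.38 ± 0.10 (adjusted p = 1.36e-06) and the asparagine synthetase Asns, picked after its values were seen, by 1.08 ± 0.08 (adjusted p = 1.32e-06). Atf4 (adjusted p = 0.071), the factor of this response, was called higher and Ddit3 (0.07), which encodes CHOP, lower only with the pool as a block. The promoters of Slc7a11 and Asns are printed for their matches to the C/EBP-ATF composite motif TGATGNAA (both strands), the letters that ATF4 binds, in capitals within the 140 bases before the start on the gene's strand (RefSeq, GRCm38.p6): Slc7a11 at chr3:50443614-50443753 and Asns at chr6:7693210-7693349, both on the minus strand.
Slc7a11: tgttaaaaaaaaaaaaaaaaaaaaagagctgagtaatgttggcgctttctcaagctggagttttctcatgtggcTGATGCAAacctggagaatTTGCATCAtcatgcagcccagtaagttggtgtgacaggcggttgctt
Asns: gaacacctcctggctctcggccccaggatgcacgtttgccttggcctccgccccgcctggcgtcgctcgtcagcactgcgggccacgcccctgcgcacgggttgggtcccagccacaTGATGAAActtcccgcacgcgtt
Slc7a11 holds 2 matches and Asns 1. The windows of Slc3a2, Phgdh, Psat1, Mthfd2 and Slc7a1, which were searched as well, hold no match. The motif occurred in 5 of 18 genes of this list with a promoter sequence (27.8%), in 41.7% of the aminoacyl-tRNA synthetases, in 2.85% of all tested genes, in 2.84% of risen and in 3.06% of fallen genes.

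The list of Nrf2, glutathione and thioredoxin genes rose for 14 of 21 members and fell for 2 (median 0.80). Control of its members by Nrf2 was not tested. Hmox1, which degrades heme, rose from 473, 511 and 451 to 2126, 1824 and 1918 CPM (2.03 ± 0.12, adjusted p = 2.79e-07), Osgin1 by 1.96 ± 0.37 (adjusted p = 0.00161) and the peroxiredoxin Prdx5 by 1.87 ± 0.17 (adjusted p = 5.72e-06). Nfe2l2, the gene of Nrf2 itself, was at 318, 288 and 284 CPM in medium and 300, 266 and 288 CPM with LPS and did not pass (adjusted p = 0.507). The glutathione enzymes Gpx1 and Gstm1 fell, Gpx1 from 783, 914 and 711 to 348, 507 and 324 CPM (-1.03 ± 0.18, adjusted p = 0.00086) and Gstm1 by 0.84 ± 0.12 (adjusted p = 0.000276). The Nrf2 motif TGACNNNGC was found in 7 of 17 promoters of this list (41.2%) and in 38.9% of the integrated stress response list. It was found in 17.1% of all tested genes, 18% of risen and 17.5% of fallen genes, so that risen and fallen genes hardly differed. Iron and heme genes rose for 9 of 19 tested members and fell for 4 (median 0.50). Hamp, the hormone hepcidin that closes the iron exporter, went from 0.12, 0.0761 and 0 to 3.33, 3.02 and 2.66 CPM, at least 19.7-fold higher (adjusted p = 6.05e-07), and the iron importer Slc11a2 from 63, 62.5 and 60.2 to 351, 274 and 322 CPM (2.35 ± 0.10, adjusted p = 2.20e-08). The exporter gene Slc40a1 (adjusted p = 0.284) was called lower only with the pool as a block, and the transferrin receptor Tfrc did not pass (0.728). The heme exporter Flvcr1 and the biliverdin reductase Blvra fell by 0.55 ± 0.10 and 0.84 ± 0.12 (adjusted p = 0.000974 and 0.000253).

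The lysosome list had the largest number of fallen members of the 49 lists: 35 of 52 genes fell and 5 rose (median -0.44). Besides Ctsd, these were hydrolases such as the arylsulfatase gene Arsb (-1.14 ± 0.17, adjusted p = 0.000302), membrane proteins such as Lamp1, picked after its values were seen, from 2003, 1838 and 1847 to 1291, 1171 and 1240 CPM (-0.62 ± 0.07, adjusted p = 3.16e-05), and the regulator Tfeb itself, from 149, 170 and 182 to 90.9, 56.6 and 81 CPM (-1.13 ± 0.26, adjusted p = 0.00459). The risen members were led by proton pump subunits, Atp6v1e1 (0.81 ± 0.10, adjusted p = 6.09e-05) and Atp6v1h (0.78 ± 0.08, adjusted p = 1.40e-05), and by the carboxypeptidase Ctsz (0.48 ± 0.07, adjusted p = 0.000174). Ctsb, another abundant cathepsin, did not pass (adjusted p = 0.575). The count of risen members was 3 without the batch term, without LPS sample 17 or 19 or without medium sample 17 or 18. Autophagy genes had 3 risen (12.5%) and 2 fallen (8.33%) of 24, fewer than the 19.3% and 18.7% of all genes tested. Among single members, Atg7 was down by 1.13 ± 0.13 (adjusted p = 4.21e-05). The cargo receptor Sqstm1, also an Nrf2 target, was up from 2010, 1794 and 1754 to 4038, 4643 and 5378 CPM (1.32 ± 0.19, adjusted p = 0.000272). The promoters of Lamp1 and Ctsd are printed for the E-box CACGTG, the core of the sites bound by TFEB, which reads the same on both strands (140 bases before the start on the gene's strand, RefSeq, GRCm38.p6, matches in capitals): Lamp1 at chr8:13159021-13159160 (plus) and Ctsd at chr7:142387828-142387967 (minus).
Lamp1: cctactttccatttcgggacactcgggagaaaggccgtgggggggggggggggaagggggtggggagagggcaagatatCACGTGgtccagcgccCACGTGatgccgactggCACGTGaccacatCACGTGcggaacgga
Ctsd: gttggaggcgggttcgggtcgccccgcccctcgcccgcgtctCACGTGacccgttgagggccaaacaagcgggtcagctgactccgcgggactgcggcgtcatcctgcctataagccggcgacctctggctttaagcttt
Lamp1 holds 4 matches and Ctsd 1 in the part shown and 2 in its window. Of lysosomal genes with a promoter sequence, 14 of 40 held the E-box (35%), as did 33.3% of the clock genes, against 11.9% of all tested genes, 12.6% of risen and 12.5% of fallen genes.

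Cell cycle genes were low and fell for 17 of 48 members, while 6 rose (median -0.33), and 7 fell without the batch term. E2f2, a factor of S phase entry, fell from 28.4, 24.7 and 24.3 to 6.11, 5.25 and 2.98 CPM (-2.45 ± 0.21, adjusted p = 4.60e-06), and the mitotic cyclin Ccnb2 by 1.18 ± 0.16 (adjusted p = 0.000172) with overlapping groups. Cdk6 rose by 1.12 ± 0.09 (adjusted p = 2.19e-06) and the inhibitor Cdkn1a, which encodes p21, by 0.76 ± 0.08 (adjusted p = 1.49e-05). Among 16 enzymes of DNA methylation and H3K27, 5 rose and 1 fell, and 3 rose without LPS sample 17 or 18 or medium sample 17 or 19. The demethylase gene Kdm6b, known to be induced by LPS, rose from 3.1, 3.14 and 2.99 to 7.59, 10.7 and 8.05 CPM (1.51 ± 0.15, adjusted p = 1.54e-05), and Dnmt3a and Ezh2 did not pass (adjusted p = 0.182 and 0.909). Of 13 tested clock genes, 2 rose (15.4%) and 3 fell (23.1%), near the 19.3% and 18.7% of all genes tested. Among single members, the output factor Dbp was down by 1.28 ± 0.13 (adjusted p = 1.42e-05) and Per3 by 0.79 ± 0.13 (adjusted p = 0.000746), while Arntl and Clock did not pass (0.37 and 0.178). Tubulins and tropomyosins rose for 8 of 14 members and fell for 1 (median 0.75), with Tpm1 from 5.8, 12.1 and 8.78 to 30.9, 34.8 and 39.1 CPM (2.02 ± 0.16, adjusted p = 2.19e-06) and Tpm4 by 1.49 ± 0.09 (adjusted p = 2.18e-07). In polyamine metabolism 2 of 8 rose, the synthases Sms and Srm (0.94 ± 0.14 and 0.78 ± 0.08), and 2 fell, Sat1 (-1.21 ± 0.13) and the rate-limiting Odc1 (-0.31 ± 0.07). These are 25% each, of few genes, against 19.3% and 18.7% of all genes tested.

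The same contrast in WT AMs called 2131 genes higher (15.5%) and 2228 lower (16.2%). Of the genes that rose in Scnn1b-Tg AMs, 1888 also rose and 1 fell in WT, and 763 were not called there. Of the fallen genes, 1871 also fell and 702 were not called in WT. Among the 3759 genes called the same way in both, the change was larger in Scnn1b-Tg for 2625 (69.8%). This share is not a test of the genotypes, since genes of a sample are not independent and the genotypes were split differently over the library batches. The study describes an outlier among its WT macrophage samples given LPS, and its text does not name the sample. The part of that sample in the share was not tested. The test of the difference itself depended on the tool: edgeR called 0 genes for the Scnn1b-Tg response minus the WT response (0% of 13729), with 817 genes at an unadjusted p under 0.05 and a lowest adjusted p of 0.271, while DESeq2 called 77 genes (57 higher and 20 lower in Scnn1b-Tg). Some of the 77 had extreme log2 differences in DESeq2 without a low p in edgeR. Gm26623, first by adjusted p in DESeq2, was at -19.1, Tmem181c-ps at 25.4 and Gm26920 at -21.8. Their unadjusted p in edgeR was 0.2, 0.233 and 0.317. The 10 genes with the lowest p in edgeR were Ccl5, Ehd1, Cd14, Il1rn, Gpr84, Bloc1s6, Plpp1, ENSMUSG00000037015, Carmil1 and Smpdl3b, and their adjusted p lay between 0.271 and 0.329 with edgeR and between 1.37e-05 and 0.00192 with DESeq2, which called all 10. Ccl5 reached 144, 204 and 181 CPM with LPS in Scnn1b-Tg and 33.8, 38.4 and 43.1 CPM in WT pools 16, 17 and 18, from medium levels of 1.78, 3.12 and 2.05 and of 1.18, 1.08 and 1.61 CPM (log2 fold changes of 6.25 and 4.90, difference 1.35). For Cd14, Il1rn, Gpr84, Plpp1 and Ehd1 the medium level was lower in Scnn1b-Tg: Il1rn stood at 33.8, 39.7 and 33.7 CPM in Scnn1b-Tg and at 80, 81.3 and 77.4 CPM in WT medium samples, and at 209, 253 and 294 and at 294, 293 and 258 CPM with LPS (log2 fold changes of 2.81 and 1.83). The unnamed gene ENSMUSG00000037015 was at 28.6, 0.38 and 0.299 CPM in Scnn1b-Tg medium samples, 35.5, 27.7 and 30.1 CPM with LPS, 34.6, 27.4 and 23.8 CPM in WT medium samples and 0.399, 0.364 and 0.397 CPM with LPS, so that pool Tg17 did not show the switch of the other 2. The scatter plot of both genotypes shows most genes along the diagonal.

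**Figure D5:**
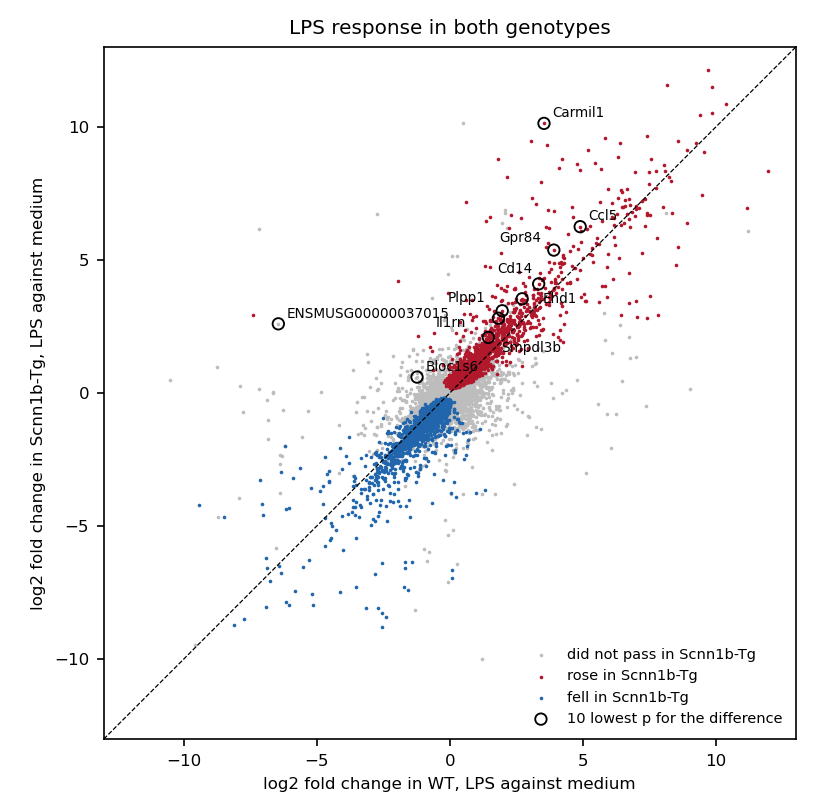
Log2 fold change (LPS against medium) of each gene in Scnn1b-Tg AMs (vertical axis) against that in WT AMs (horizontal axis), 3 pools each, coloured by the call in Scnn1b-Tg. The dashed line marks equal change and the rings the 10 genes with the lowest p for the difference, none of which passed the adjusted threshold with edgeR (0.271 to 0.329) and all of which passed it with DESeq2.

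Of the called genes, 11 risen and 8 fallen lacked 1 direction in all 3 pools. The calls were made on these same pools, so that this count cannot show that batch 1 and batch 2 responded alike. The medians of the lists within pools 17, 18 and 19 were close for interferon-stimulated genes (1.68, 1.29 and 1.63), AM identity (-1.36, -1.31 and -1.18), the lysosome (-0.43, -0.45 and -0.40) and fatty acid oxidation (-0.45, -0.52 and -0.54). They differed for oxidative phosphorylation (-0.49, -0.09 and -0.07) and cytosolic ribosomal proteins (-0.13, 0.27 and 0.18), where pool 17 stood apart. It is the only Scnn1b-Tg pool of its batch, so that pool and batch cannot be told apart there.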

How the data were processed

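RNA of 12 pools-by-treatment samples was sequenced by the authors from SMART-Seq v4 libraries on a HiSeq instrument. The deposited values are estimated counts per gene, which the authors made with HISAT2, StringTie and its count script on mm10 without using strand, and they are not whole reads, as a read pair adds about 5 to a gene's value. They were rounded to whole numbers. Of 20551 genes in the table, 399 were at 0 in all libraries, and the 13729 that passed filterByExpr of edgeR 4.0.16 (R 4.3.3, minimum count 10, minimum total 15) were tested by the quasi-likelihood test, with TMM factors, all 12 samples, a term for each group of genotype and treatment, the library batch as covariate and Benjamini-Hochberg adjustment over all genes, at a threshold of 0.05. The same model gave the WT response and the difference of both. The code was tested on simulated data.

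The members and gene lists were chosen with earlier results of these data known. Named genes were the 12 largest rises and falls among protein-coding genes at a mean of 5 or more CPM without overlap between groups, the 10 largest gains and losses of CPM, up to 4 risen and 4 fallen genes of each list, members that did not pass where their role is described, and the 10 genes with the lowest p for the difference. The genes said to be picked after their values were seen stand outside these rules.

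Samples of a pool come from the same animals, and their deviations from the group means correlated by 0.33, 0.198 and 0.137 in Scnn1b-Tg pools 17, 18 and 19 and by 0.186, 0.304 and 0.335 in WT pools 16, 17 and 18, so that a fit with the pool as a block was made beside the main one. P-values of the main fit measure the spread between samples of a group, over all 12 samples and beyond the batch term. They do not use the pairing by pool. Since strand was not used, reads of genes that overlap on either strand cannot be told apart, which concerns 36.7% of tested genes and, among those with a full account here, Rnf225, Tpbg, Lox, Slco2b1, Dysf, Slpi, Sqstm1, Cfb, Mmp12, Ctsd, Cxcl10, Il1b, Fosl1, Oasl1, Gbp2, H2-DMa, Gpr84, Ltc4s, Ptgs1, Spp1, Icam1, Acsl1, Hmgcs1, Acox3, Slc2a1, Hif1a, Slc11a2, Lamp1, Kdm6b and Tpm4. Values of near-identical relatives (Cxcl1 to Cxcl3, the Gbp and Ifit families, Chil3) are uncertain for the same kind of reason. No interval of counting error is given, since estimated counts are not independent molecules. Alternatives changed the normalization, filter, test, batch term, block, samples fitted, count scale and each sample in turn. Columns of per-sample values not used numbered 0. Some members of the complement, cholesterol synthesis and lineage factor lists are counted and not reported here by name.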

Additional observations from a re-analysis of the deposited data

How the results depend on the processing

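For Scnn1b-Tg LPS against medium, the numbers of risen and fallen genes stayed within 1.5 times those reported under all alternatives: 2660 and 2589 with RLE factors, 2609 and 2311 without the filter, 2456 and 2429 at a mean of at least 50 counts, 2797 and 2738 with DESeq2, 2554 and 2510 with counts divided by 5, 2274 and 2145 without the batch term, and 2586 and 2446 with the older dispersion estimate of edgeR, which was added after seeing the data. With the pool as replicate block, 3060 rose and 3038 fell, and 2634 of the risen and 2541 of the fallen genes reported were called again. Fitted alone, the 6 Scnn1b-Tg samples gave 2708 and 2592 with the batch term and 2894 and 2797 with the block. Leaving out each of the 6 samples in turn gave totals of 4268 to 4617. For the difference of LPS responses, DESeq2 called 77 genes against 0, and leaving out 1 sample at a time gave 0 to 1. The number of genes at an unadjusted p under 0.05 with edgeR was 817 with all samples. It was 1296 without WT LPS sample 16, 840 without sample 17 and 629 without sample 18, with 0 genes called each time. No gene reported as risen or fallen changed direction under these alternatives. Of 335 named genes that were called, 49 lost the call under at least 1 of 16 alternatives, among those with values in the text Ccl6, Nos2 and H2-Ab1. The block ended no call of a gene given in the text as risen or fallen. Genes that did not pass crossed 0 on leaving out 1 sample, with log2 fold changes from -1.14 to 0.05 for Scnn1b, -0.16 to 1.15 for Ccl2, -0.27 to 2.24 for Ccl7, -0.54 to 0.34 for Ccl17, -0.04 to 0.13 for Atf3, -0.07 to 0.11 for Samhd1, -0.08 to 0.06 for H2-D1, -0.13 to 0.23 for Cd80, -0.46 to 0.05 for Cd86, -0.18 to 0.81 for Cd74, 0.00 to 0.06 for Lpl, -0.15 to 0.09 for Srebf2, -0.12 to 0.01 for Pkm, -0.06 to 0.25 for Tfrc and -0.13 to 0.22 for Ezh2. H2-D1 was also at 0.02 without the filter and at 0.00 without the batch term and with the 6 samples alone, and on leaving out 1 sample only Cd86 of these 15 genes passed the test (adjusted p = 0.0495 without medium sample 19, edgeR quasi-likelihood test). Depth limits genes near the floor of 0.137 to 0.163 CPM: bounds are given where all 3 samples of a group were at or under it, and the fold changes of genes just above it, such as Slco2b1 and Cxcr2, rest on few reads.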
